A study of Mus musculus with 4 samples.

Results

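The Desert hedgehog pathway of the nerve sheath is described here through 9 genes chosen by symbol: the ligand Dhh, the receptors and binding proteins Ptch1, Smo, Boc and Hhip, the transcription factors Gli1, Gli2 and Gli3, and their inhibitor Sufu. All 9 are among the 24062 gene symbols of the count table, and all 9 passed the expression filter of 1 CPM (counts scaled to library size with TMM factors) or more in at least 1 library, as did 14700 genes in all. Whole sciatic nerves came from 4-month-old mice labelled as C57BL/6 strain, with 1 RNA sequencing library for each of 4 genotypes. WT nerves carried neither mutation, and PKO nerves were P2RY14-/-, lacking the UDP-glucose receptor, which signals through G proteins. NF1 nerves were Nf1fl/fl with Dhh Cre, and PKO-NF1 nerves carried P2RY14-/- together with floxed Nf1 (written Nf1fl/f in the labels) and Dhh Cre. Nf1 encodes the RAS GTPase-activating protein neurofibromin. The Cre driver is named after the ligand described here and is active in the Schwann cell lineage. Which cells of the nerve lost Nf1, and which kept it, was not measured here. The sources used here do not give whether the Cre construct holds transcribed Dhh sequence, how many animals a library holds, or whether any control carried Cre or floxed alleles alone.

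In peripheral nerve, Schwann cells secrete Desert hedgehog, and fibroblast-like cells of the endoneurium and perineurium receive it. The ligand binds Patched 1, which otherwise holds Smoothened inactive. Active Smoothened acts in the primary cilium to free GLI transcription factors from SUFU, and Gli1, Ptch1 and Hhip are among the genes that GLI factors switch on. Mice without Dhh form a thin and leaky perineurium with small extra fascicles, and the perineurium is part of the blood-nerve barrier named in the title of the series.

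The regions just upstream of the ligand gene and of its receptor gene are shown because the first belongs to the gene that gives the Cre driver its name and the second to a target of the pathway. The RefSeq table of promoter windows on GRCm38.p6 held 7 of the 9 genes; Boc and Gli1 were not matched. Both sequences run 5′ to 3′ on the minus strand, end at the base before the transcription start, and have CG pairs in capitals. They cover chr15:98898541-98898790 for Dhh and chr13:63565736-63565985 for Ptch1.
Dhh: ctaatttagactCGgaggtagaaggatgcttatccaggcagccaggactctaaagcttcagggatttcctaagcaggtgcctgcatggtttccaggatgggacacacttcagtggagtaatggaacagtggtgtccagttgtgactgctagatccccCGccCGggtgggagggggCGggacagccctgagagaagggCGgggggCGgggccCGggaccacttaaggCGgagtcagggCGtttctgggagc
Ptch1: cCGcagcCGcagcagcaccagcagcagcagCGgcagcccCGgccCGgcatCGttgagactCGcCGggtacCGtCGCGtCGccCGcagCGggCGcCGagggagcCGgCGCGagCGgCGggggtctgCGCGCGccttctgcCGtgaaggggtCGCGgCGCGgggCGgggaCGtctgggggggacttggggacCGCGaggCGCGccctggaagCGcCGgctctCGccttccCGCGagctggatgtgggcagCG
The Dhh region holds 9 CG pairs and the Ptch1 region 41, where the median of all windows is 6. The GLI consensus GACCACCCA was searched on both strands of the 300-base windows, which reach from 250 bases before to 50 after each start. None of the 7 members matched it, either exactly or with at most 1 mismatch, and of all 32851 windows 0.253% matched exactly and 6.74% with at most 1 mismatch. The Ptch1 window lies inside the annotated gene, so other Ptch1 starts were not searched.

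Library totals ran from 14111201 counts in WT to 20362685 in PKO, and a count of 0 allows up to 3 counts, which is 0.152 to 0.183 CPM. With 1 library per genotype there was no replicate check, and each ratio compares 2 libraries with a 95% interval that covers counting error only. P2ry14 was at 37.6 CPM in WT, 65.3 in NF1, 10.9 in PKO and 10.6 in PKO-NF1, and Nf1 at 72.8, 63.4, 41 and 20.5 CPM in the same order, so whole-gene Nf1 counts were 1.15-fold lower in NF1 relative to WT (1.06 to 1.24). Whole-gene counts may include reads outside the deleted exons. The NF1 library is labelled a repeat. Its 20 skeletal muscle markers took 6.33% of counts, against 0.0148% to 0.135% in the other libraries, and its 4 Y-linked markers were at 0 with Xist at 2010 CPM. WT and PKO held both kinds of transcript, and PKO-NF1 held the Y-linked ones with Xist at 0.549 CPM. Sex-linked transcripts thus moved with genotype in each comparison below, and their part was not tested. Transcripts of ribosomal proteins made up 3.84% of the WT library, 7.04% of NF1, 11.6% of PKO-NF1 and 15.2% of PKO. Ratios also moved with transcript length and GC content: in NF1 vs WT the lowest and highest GC deciles had median log2 ratios of 0.46 and -0.41, and in PKO-NF1 vs PKO these were 0.55 and -0.59. The length trend was widest in the P2ry14 comparisons. Between the shortest and longest deciles the medians were 1.03 and -0.49 in PKO vs WT, and 0.60 and -0.72 in PKO-NF1 vs NF1. Smo, Gli1 and Gli2 lie at GC percentiles 89.7, 93.7 and 89, and Ptch1 has the longest transcript of the members, at 10383 bases. Each ratio of a pathway gene between libraries was therefore also computed with these trends removed.

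Set side by side per kilobase of the longest annotated transcript, Dhh was the most abundant member in WT, at 69.9 CPM per kb. Gli1 followed at 36.3 CPM per kb and Smo at 34.8, whose counting intervals overlap (34.9 to 37.8 and 33.4 to 36.3). Ptch1 stood at 19.2, Boc at 8.31, Sufu at 5.75, Gli2 at 4.64, Gli3 at 1.63 and Hhip at 0.15 CPM per kb, each apart from its neighbours beyond counting error. The ligand, the receptor pair Ptch1 and Smo and the target Gli1 were thus above the co-receptor, the inhibitors and the other GLI factors. In PKO the order at the top changed to Smo (29.4), Dhh (24.7) and Gli1 (22.0 CPM per kb). In PKO-NF1 Ptch1, at 4.28 CPM per kb, was below Boc at 6.11, the reverse of the other 3 libraries. The 9 genes together reached 884 CPM in WT, 639 in NF1, 517 in PKO and 338 in PKO-NF1. WT was the highest library for 7 of the 9 genes, as it was for 28.5% of all tested genes. PKO-NF1 was the lowest for 4, as it was for 30.3%, and PKO for 4, as it was for 23.1%. This ranking of libraries was made without removing the length and GC trends. With the trends removed, Gli1 had a log2 ratio of 0.42 (0.34 to 0.50) in NF1 vs WT. In PKO vs WT, Smo (0.02, -0.07 to 0.10) and Sufu (0.02, -0.17 to 0.22) were then not detectably below WT. Neither were Gli3 (0.18, -0.09 to 0.44) and Ptch1 (-0.04, -0.11 to 0.03) in NF1 vs WT. Dhh and Gli2 stayed below WT in NF1 and in PKO, and PKO-NF1 vs WT was not computed.

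**Figure D1:**
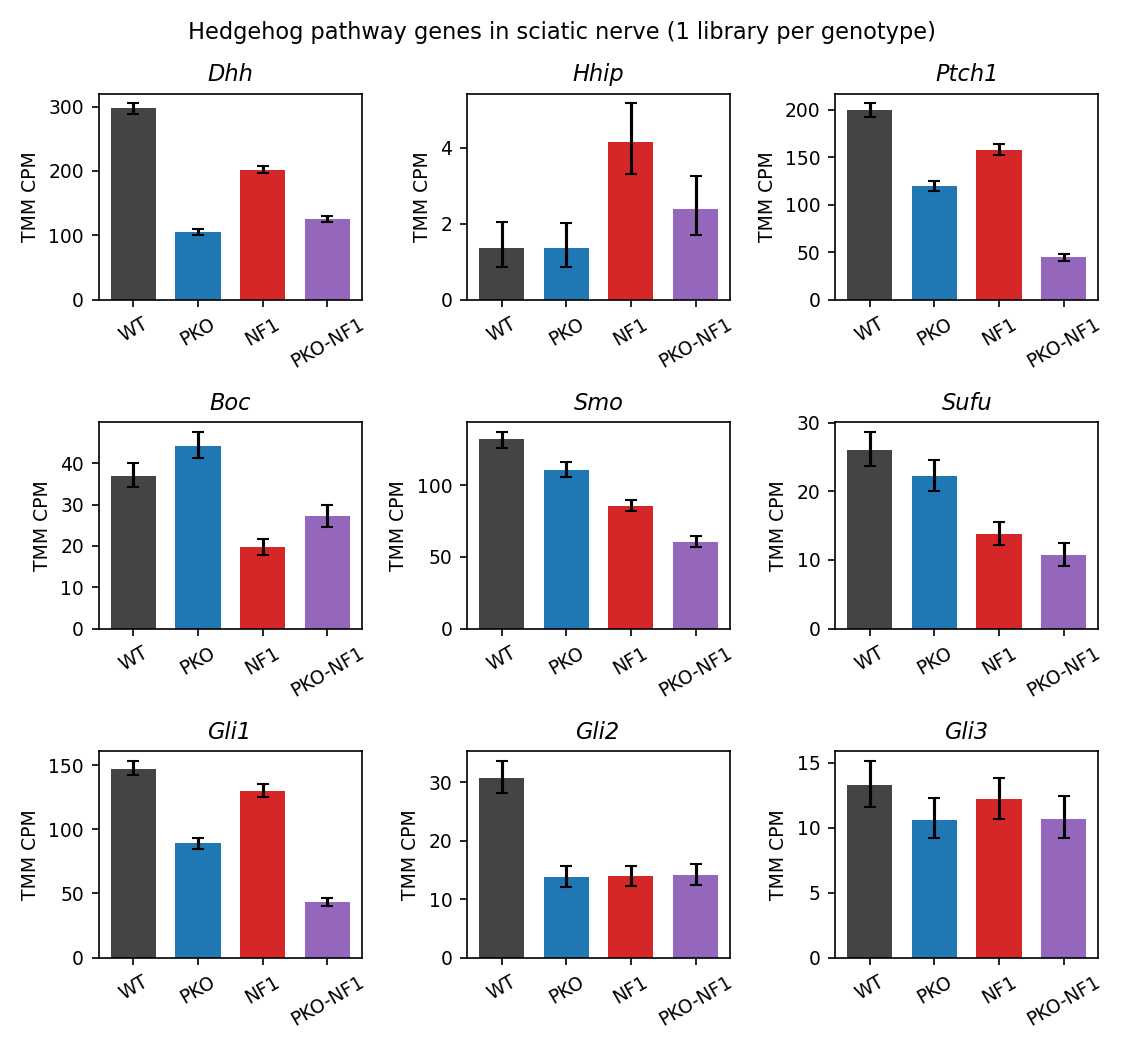
Level of each of the 9 hedgehog pathway genes (vertical axes, TMM-scaled CPM, each panel on its own scale from 0) in the WT, PKO, NF1 and PKO-NF1 libraries (horizontal axes), with bars for the 1 library per genotype and lines for exact 95% Poisson intervals of counting error. Dhh stands at 297 CPM in WT and 105 CPM in PKO, and Ptch1 and Gli1 have their lowest bars in PKO-NF1, at 44.4 and 43.1 CPM.

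Dhh (ENSMUSG00000023000; chromosome 15, 98891152 to 98898540, minus strand of GRCm38), the secreted ligand, was at 297 CPM in WT, 202 in NF1, 125 in PKO-NF1 and 105 in PKO. Both P2ry14-null libraries were therefore low in Dhh, and their counting intervals did not reach those of WT or NF1. Dhh was 1.47-fold lower in NF1 relative to WT (1.41 to 1.53) but 1.19-fold higher in PKO-NF1 relative to PKO (1.12 to 1.27). PKO had 2.83-fold less Dhh than WT (interval 2.68 to 2.98), and PKO-NF1 1.62-fold less than NF1 (1.53 to 1.71). After removal of both trends these 4 ratios kept their directions, at 1.1-fold lower (1.05 to 1.14), 1.55-fold higher (1.46 to 1.65), 2.51-fold lower (2.38 to 2.65) and 1.33-fold lower (1.26 to 1.40). Dhh overlaps Rhebl1, which was at 4.84 to 8.48 CPM in the 4 libraries, highest in PKO-NF1.

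The level of Dhh can be set against the genes of the cells that make it. Of 10 genes of the Schwann lineage and of non-myelinating Schwann cells, 6 were at least 2-fold lower in PKO than in WT and 1 higher, with a median log2 ratio of -1.10, where 5.22% of all tested genes were lower and 10% higher. Removing the trends left 3 lower and 1 higher, beside 5.84% and 4.91% of all genes, with a median of -0.88. The 12 myelinating genes had none lower and a median of 0.29 in PKO vs WT. They were lower in the Nf1-mutant libraries, 10 of 12 in NF1 vs WT and 7 of 12 in PKO-NF1 vs PKO, beside 6.31% and 9.7% of all genes. With the trends removed 8 and 5 were lower, beside 4.66% and 4.97%. The 12 genes summed to 24800 CPM in WT, 8240 in NF1, 35200 in PKO and 18500 in PKO-NF1. As a share of the summed level of the 12 myelinating genes, Dhh was 1.2% in WT, 2.45% in NF1, 0.298% in PKO and 0.675% in PKO-NF1. Against the 10 lineage and non-myelinating genes the shares were 13.2%, 9.68%, 6.15% and 4.66%. The share of the myelinating sum was thus higher in NF1 than in WT, although Dhh itself was lower, with the lower sum as its base. On either base the share was lower in each P2ry14-null library than in the library of the same Nf1 status. Both sums were themselves higher in PKO-NF1 than in NF1, and the shares were computed without trend removal. In PKO-NF1 vs NF1, 5 of 12 myelinating genes were higher and none lower, where 7.9% of all genes were higher and 13.8% lower. The lineage sum was largely S100b, at 1040 CPM in NF1 and 1940 in PKO-NF1, while 2 of its 10 genes were lower and none higher. Sox10, the transcription factor of the lineage, was at 260 CPM in WT, 141 in NF1, 161 in PKO and 67.9 in PKO-NF1. In whole nerve, fewer cells of a type and less RNA per cell cannot be told apart.

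Ptch1 (ENSMUSG00000021466; chromosome 13, 63508328 to 63573598, minus strand), the receptor that is also a target gene, was at 200 CPM in WT, 158 in NF1, 120 in PKO and 44.4 in PKO-NF1. PKO-NF1 stood apart from all the others: Ptch1 was 2.7-fold lower than in PKO (2.48 to 2.94) and 3.56-fold lower than in NF1 (3.28 to 3.86). Smo (ENSMUSG00000001761; chromosome 6, 29735503 to 29761365, plus strand), the signal transducer that Patched restrains, was at 132 CPM in WT, 85.9 in NF1, 111 in PKO and 60.7 in PKO-NF1. Its 4 counting intervals were separate, and both Nf1-mutant libraries were below both others, by 1.53-fold in NF1 vs WT (1.44 to 1.63) and 1.83-fold in PKO-NF1 vs PKO (1.70 to 1.98). With the trends removed these were 1.05-fold (0.99 to 1.12) and 1.28-fold (1.19 to 1.38).

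Boc (ENSMUSG00000022687; chromosome 16, 44485049 to 44558897, minus strand), a co-receptor that helps ligand bind Patched, was at 44.2 CPM in PKO, 37.0 in WT, 27.2 in PKO-NF1 and 19.7 in NF1. Like Smo it was lower in both Nf1-mutant libraries, by 1.87-fold in NF1 vs WT (1.65 to 2.13) and 1.63-fold in PKO-NF1 vs PKO (1.45 to 1.83), and with the trends removed by 1.30-fold (1.14 to 1.47) and 1.10-fold (0.982 to 1.24). Hhip (ENSMUSG00000064325; chromosome 8, 79965851 to 80058006, minus strand) encodes a membrane protein that binds and blocks the ligand. Its counts were 23 in WT, 82 in NF1, 24 in PKO and 39 in PKO-NF1, or 1.36, 4.16, 1.35 and 2.38 CPM. Hhip was the one member that was higher in both Nf1-mutant libraries than in the matching Nf1-intact ones under the main scaling and with the trends removed: 3.07-fold in NF1 vs WT (1.91 to 5.10) and 1.76-fold in PKO-NF1 vs PKO (1.03 to 3.07), with wide intervals at these counts.

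Gli1 (ENSMUSG00000025407; chromosome 10, 127329882 to 127341974, minus strand), the GLI factor whose transcript is a readout of pathway activity, was at 147 CPM in WT, 130 in NF1, 89.1 in PKO and 43.1 in PKO-NF1. The order of the libraries was that of Ptch1, and over the 4 libraries these were the members closest to each other after Smo and Sufu (distance of centred log2 levels 0.32 and 0.24). Gli1 was 2.07-fold lower in PKO-NF1 relative to PKO (1.89 to 2.26) and 3.01-fold lower than in NF1 (2.77 to 3.27). Arhgap9, which overlaps Gli1 on the other strand, was at 14.3 to 17.9 CPM, highest in PKO-NF1 and lowest in NF1.

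Gli2 (ENSMUSG00000048402; chromosome 1, 118834132 to 119053619, minus strand), the main activator of the family, was at 30.8 CPM in WT and at 13.9 in NF1, 13.8 in PKO and 14.2 in PKO-NF1. No difference among the 3 mutant libraries was detectable at this depth, although with the trends removed PKO-NF1 was 1.96-fold above PKO (1.63 to 2.36) and 1.78-fold above NF1 (1.49 to 2.13). By the main scaling each single mutant was lower than WT, by 2.22-fold in NF1 (1.92 to 2.58) and 2.24-fold in PKO (1.92 to 2.61). Gli3 (ENSMUSG00000021318; chromosome 13, 15463235 to 15730026, plus strand), which acts mainly as a repressor, was at 13.3 CPM in WT, 12.2 in NF1, 10.7 in PKO-NF1 and 10.6 in PKO. Of its 4 ratios PKO vs WT alone, at 1.25-fold lower (1.03 to 1.52), had a counting interval that excluded 1. That Gli3 ratio was, with the trends removed, 1.05-fold lower (0.858 to 1.28), and PKO-NF1 was then 1.37-fold above PKO (1.11 to 1.69) and 1.29-fold above NF1 (1.06 to 1.57). Sufu (ENSMUSG00000025231; chromosome 19, 46396896 to 46488804, plus strand), which holds GLI proteins in the cytoplasm, was at 26.0 CPM in WT, 13.8 in NF1, 22.3 in PKO and 10.7 in PKO-NF1. Sufu was thus low in both Nf1-mutant libraries, by 1.89-fold in NF1 vs WT (1.62 to 2.20; 1.3-fold, 1.12 to 1.52, with the trends removed) and 2.09-fold in PKO-NF1 vs PKO (1.74 to 2.51).

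NF1 against WT addresses the loss of Nf1 from cells in which the Dhh driver was active. A gene was counted as apart when it was at least 2-fold higher or lower and its counting interval excluded 1. Hhip was higher and Gli2 lower by this rule, and the remaining 7 members were not called; of all tested genes 10.4% were higher and 6.31% lower. The members' median log2 ratio was -0.55, beside -0.00 over all tested genes. With the length and GC trends removed Hhip was still 2.91-fold higher (1.82 to 4.85) and Gli2 was 1.37-fold lower (1.18 to 1.59), where 7.52% of all genes were higher and 4.66% lower, and the members' median was -0.08. Gli1 had a log2 ratio of -0.19 by the main scaling and 0.42 with the trends removed. The skeletal muscle RNA of the NF1 library moves with this comparison and its part was not tested; with muscle and sex-linked genes left out of the scaling Hhip and Gli2 were again the 2 members called. Total counts alone gave 4, adding Sufu (-1.13) and Boc (-1.12), with 41.2% of all called genes higher in place of 62.3%.

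PKO-NF1 against PKO addresses the loss of Nf1 on a P2ry14-null background, in libraries whose muscle markers took 0.0314% and 0.0148% of counts. Ptch1, Gli1 and Sufu were lower and no member was higher, where 9.7% of all tested genes were lower and 5.2% higher. The members' median log2 ratio was -0.70, beside -0.01 over all genes. None of the 3 stayed at 2-fold after removal of the length and GC trends, and the members' median was then -0.14, beside -0.06 over all genes. Ptch1 was then 1.92-fold lower (1.77 to 2.10), Sufu 1.41-fold lower (1.18 to 1.70) and Gli1 1.33-fold lower (1.22 to 1.46), and of all genes 4.97% were lower and 2.92% higher. Scaled by total counts alone, Ptch1 was called and Gli1 and Sufu, at log2 ratios of -0.97 and -0.98, were not.

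PKO against WT addresses the loss of P2ry14 without the Nf1 mutation. Whole-gene Nf1 counts, without trend removal, were nevertheless 1.78-fold lower in PKO than in WT (1.62 to 1.95). The ligand Dhh and Gli2 were lower and no member was higher, where 5.22% of all tested genes were lower and 10% higher. The members' median log2 ratio was -0.32, beside -0.08 over all genes. Ptch1 and Gli1 were 1.67-fold (1.58 to 1.76) and 1.65-fold lower (1.55 to 1.76), short of 2-fold, and Smo, Sufu and Boc lay within 1.2-fold of WT. With the trends removed Dhh remained called and Gli2 was 1.67-fold lower (1.43 to 1.95), where 5.84% of all genes were lower and 4.91% higher. The members' median was then -0.06, above the -0.14 of all genes. Of all called genes 65.7% were higher by TMM, 45.7% with the trends removed and 21.6% by total counts alone. Total-count scaling moved the median of all genes to -0.54, and Ptch1 and Gli1 (both -1.19) then passed 2-fold as well, while Boc turned from 0.26 to -0.20. Ribosomal protein transcripts, which took 15.2% of counts in PKO, move with this comparison. So do the 8 adipocyte markers, which summed to 5380 CPM in WT and 4080 in NF1 but to 12800 in PKO and 11100 in PKO-NF1. Of these 3 were higher in PKO vs WT and 5 in PKO-NF1 vs NF1, beside 10% and 7.9% of all genes. With the trends removed 2 and 4 were higher, beside 4.91% and 5.67%. Adipoq, the adipocyte hormone gene, was at 551 CPM in WT and 1570 in PKO. The part of either group of transcripts was not tested.

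PKO-NF1 against NF1 asks what the loss of P2ry14 adds in Nf1-mutant nerve. Whole-gene Nf1 counts, without trend removal, also differed, at 3.09-fold lower in PKO-NF1 (2.74 to 3.5). Ptch1 and Gli1 were lower, at 3.56-fold and 3.01-fold, and no member was higher, where 13.8% of all tested genes were lower and 7.9% higher. Both stayed called with the trends removed, Ptch1 at 2.19-fold (2.02 to 2.37) and Gli1 at 2.13-fold (1.96 to 2.32), where 10.2% of all genes were lower and 5.67% higher. Boc was the member with the largest ratio on the higher side, at 1.38-fold (1.20 to 1.58). The members' median log2 ratio was -0.50, beside -0.01 over all genes, and -0.11 with the trends removed. The comparison contains the NF1 library with its muscle RNA and its label as a repeat, and batch and genotype cannot be told apart if that library was made separately. The libraries also differ in Xist, at 2010 CPM in NF1 and 0.549 in PKO-NF1, and only NF1 had Y-linked markers at 0. Sex and genotype therefore cannot be told apart here.

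**Figure D2:**
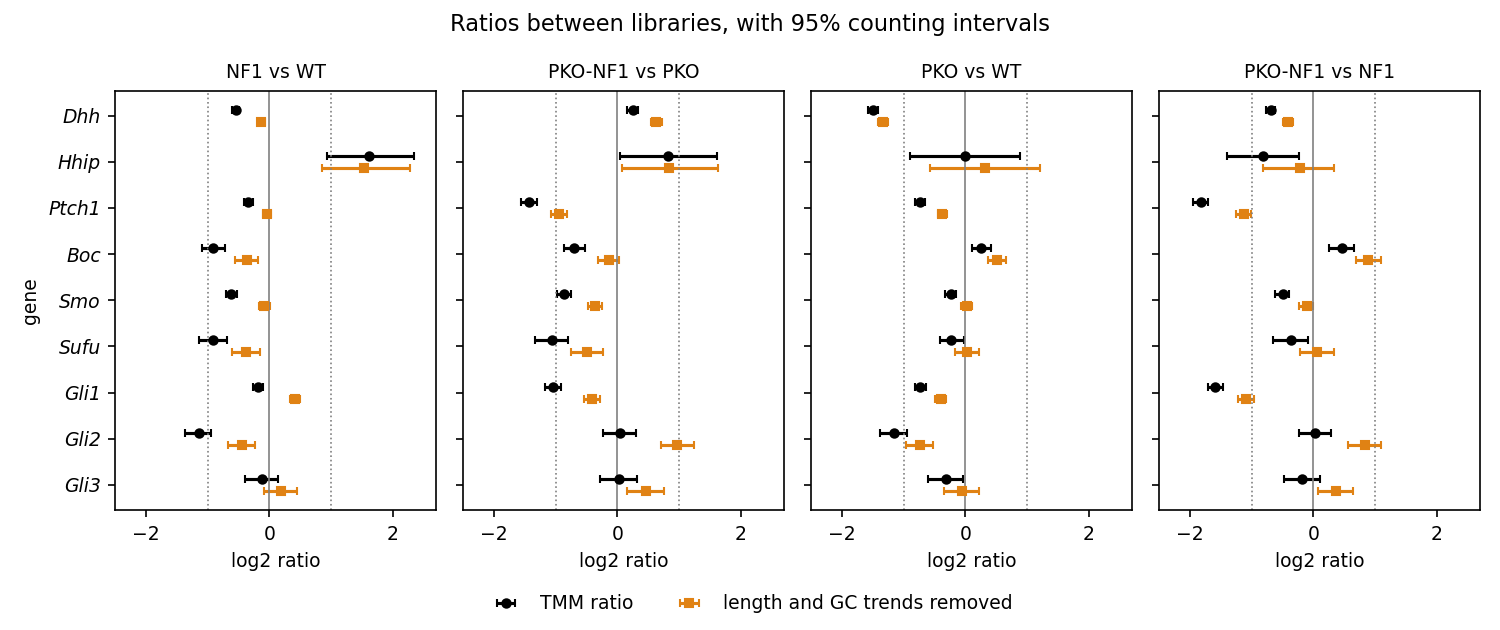
Log2 ratio between libraries (horizontal axes) for each of the 9 genes (vertical axis) in the 4 comparisons, from TMM-scaled counts (black circles) and with length and GC trends removed (orange squares); lines are 95% intervals of counting error and dotted lines mark 2-fold. Dhh lies beyond the lower 2-fold line in PKO vs WT, and Ptch1 and Gli1 beyond it in PKO-NF1 vs NF1, in both versions.

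An additive edgeR quasi-likelihood model over the 4 libraries, with a term for each mutation, measured each term against how far the 4 libraries depart from additivity; it holds no spread between animals. It called 0 of 14105 genes for the Nf1 term (2943 at unadjusted p under 0.05; 284 by the DESeq2 Wald test) and 7, or 0.0496%, for the P2ry14 term (3555 unadjusted; 720 by DESeq2). No member was among those 7. The edgeR estimates for the P2ry14 term were log2 -1.29 (SE 0.36, adjusted p = 0.152) for Ptch1, -1.16 (SE 0.31, adjusted p = 0.149) for Gli1 and -1.10 (SE 0.32, adjusted p = 0.155) for Dhh. By DESeq2 the adjusted p was 0.0411 for Ptch1, 0.0566 for Gli1 and 0.0588 for Dhh, so that Ptch1 alone of the 9 was called. For the Nf1 term the member with the smallest edgeR p was Sufu, at log2 -0.98 (SE 0.22, adjusted p = 0.17), ahead of Boc at -0.80 (SE 0.21, adjusted p = 0.183).

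The Nf1 ratio could be compared between the P2ry14-intact pair (NF1 vs WT) and the P2ry14-null pair (PKO-NF1 vs PKO), which share no library. For Ptch1 the log2 ratio was -0.34 with P2ry14 and -1.43 without it, a difference of -1.10 (counting interval -1.24 to -0.96). For Gli1 it was -0.19 and -1.05, a difference of -0.86 (-1.01 to -0.71). After trend removal these differences were -0.90 (-1.04 to -0.76) and -0.84 (-0.99 to -0.68), but the direction of Gli1 in the P2ry14-intact pair turned: its ratios were then 0.42 (0.34 to 0.50) and -0.42 (-0.55 to -0.29). Dhh and Gli2 had differences of the other sign, 0.81 (0.70 to 0.91) and 1.19 (0.86 to 1.53). Smo differed by -0.26 (-0.40 to -0.12). For Gli3, Hhip, Sufu and Boc the interval of the difference included 0, so none was detectable at this depth. These intervals leave out the spread between animals.

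Beyond the 9 genes the pathway was followed in lists of ligands and release factors, receptors and co-receptors, ciliary and GLI-processing proteins, and target genes. In NF1 vs WT none of the tested genes was called by the main scaling (with the trends removed Foxl1 was 2.37-fold higher, 1.53 to 3.75), and the list medians were -0.52 over 5 tested ligand and release genes, -0.82 over 3 receptors and co-receptors, -0.27 over 16 ciliary and processing genes and -0.18 over 7 target genes. Of the other ligands Shh was at 4.72 CPM in WT, 3.45 in NF1, 3.09 in PKO and 1.65 in PKO-NF1, and Ihh had 0 to 3 counts. Per kilobase of transcript Shh reached 1.66 CPM in WT, where Dhh stood at 69.9, and 0.579 in PKO-NF1, where Dhh stood at 29.4. Dhh was therefore the hedgehog ligand with the most transcripts in these nerves.

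Of the ligand release genes, Scube1 and Scube2 were lower in each P2ry14-null library than in its partner of the same Nf1 status, and Disp1 was not. Scube1, a secreted carrier of lipid-modified hedgehog, was at 118 CPM in WT, 72.3 in NF1, 52.3 in PKO and 31.8 in PKO-NF1, so that PKO had 2.26-fold less than WT (2.09 to 2.45) and PKO-NF1 2.27-fold less than NF1 (2.06 to 2.52). With the trends removed these ratios were 1.76-fold (1.62 to 1.90) and 1.41-fold (1.28 to 1.57). Scube2, a relative at 0.183 to 1.18 CPM, was 3.0-fold (1.22 to 8.39) and 5.27-fold lower (1.55 to 27.8) in the same comparisons. Disp1, which exports hedgehog from the cell that makes it, was at 66.2 CPM in PKO, 46.4 in WT, 23.7 in PKO-NF1 and 23.4 in NF1. Disp1 was 1.43-fold higher in PKO relative to WT (1.30 to 1.56) and 1.01-fold higher in PKO-NF1 relative to NF1 (0.882 to 1.16). It was low in both Nf1-mutant libraries, by 1.99-fold in NF1 vs WT (1.77 to 2.23) and 2.80-fold in PKO-NF1 vs PKO (2.49 to 3.15; 1.80-fold with the trends removed). Scube1 was 1.64-fold lower in both of these comparisons (1.53 to 1.75 and 1.48 to 1.83), but with the trends removed both of its intervals included 1. Shh was 2.09-fold lower in PKO-NF1 relative to NF1 (1.32 to 3.40). Hhat, the enzyme that attaches palmitate to hedgehog proteins, was at 2.99 to 4.89 CPM and was not called.

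Among the receptors, the co-receptor Cdon, a relative of Boc, was at 45.4 CPM in WT, 25.8 in NF1, 44.5 in PKO and 20.5 in PKO-NF1. It was 2.17-fold lower in PKO-NF1 relative to PKO (1.91 to 2.48; 1.63-fold with the trends removed). The co-receptor Gas1 was at 86.0 CPM in WT, 44.4 in NF1, 80.6 in PKO and 57.8 in PKO-NF1, so that Boc, Cdon and Gas1 were all lower in each Nf1-mutant library than in its partner. With the trends removed the intervals of Boc and Gas1 in PKO-NF1 vs PKO included 1. Gpc3, a glypican that competes for ligand, was at 506 to 867 CPM, had the highest level per kilobase of the list in each library, and stayed within 2-fold throughout.

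Ciliary and GLI-processing genes were called in 3 of the 4 comparisons: 3 of 16 were lower in PKO-NF1 vs PKO, 2 were lower in PKO vs WT, and 4 were lower and 1 higher in PKO-NF1 vs NF1. Of all tested genes 9.7%, 5.22% and 13.8% were lower in these comparisons, and 7.9% higher in the last. The counts with the trends removed were 1 lower, 1 lower, and 2 lower and 1 higher. Of all genes 4.97%, 5.84% and 10.2% were then lower, and 5.67% higher in the last. Kif7, the kinesin that organises the tip of the signalling cilium, was 2.93-fold lower in PKO-NF1 relative to PKO (2.16 to 4.01). Gpr161, a ciliary receptor that keeps the pathway off, was at 5.90 CPM in WT and 0.854 in PKO-NF1, where it was 4.94-fold lower than in PKO (2.77 to 9.46). Evc, which acts downstream of Smoothened at the cilium base, was 2.14-fold lower in PKO-NF1 relative to PKO (1.91 to 2.40). Its partner Evc2 was 1.13-fold lower there (1.07 to 1.2), but 1.28-fold higher with the trends removed (1.21 to 1.35). In PKO-NF1 vs NF1, Evc2 was 2.10-fold higher (1.96 to 2.25) and Evc 1.33-fold lower (1.18 to 1.5). With the trends removed the Evc interval in that comparison included 1. The kinase genes Ulk3 and Stk36 were lower in both P2ry14-null libraries, Ulk3 by 2.15-fold in PKO vs WT (1.85 to 2.52) and 2.67-fold in PKO-NF1 vs NF1 (2.19 to 3.27), and Stk36 by 2.18-fold (1.48 to 3.26) and 2.63-fold (1.65 to 4.36). With the trends removed, Gpr161 stayed called in PKO-NF1 vs PKO, Ulk3 in both P2ry14 comparisons, and Gpr161 and Evc2 in PKO-NF1 vs NF1, while Kif7, Evc and Stk36 did not. Spop, an adaptor for GLI degradation with the highest level per kilobase of this list, was at 312 to 523 CPM and was not called, nor was the kinase gene Csnk1a1 at 120 to 190 CPM.

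Target genes other than Ptch1, Gli1 and Hhip did not move as one group. Ccnd1, a cell cycle cyclin with many inputs besides GLI, was at 366 CPM in WT, 349 in PKO-NF1, 280 in NF1 and 172 in PKO. PKO had 2.13-fold less Ccnd1 than WT (2.04 to 2.23), and it was 2.03-fold higher in PKO-NF1 relative to PKO (1.94 to 2.12), against the direction of Ptch1 and Gli1 in that comparison. Foxl1, at 1.16 to 3.45 CPM, was 2.98-fold lower in PKO-NF1 relative to NF1 (1.77 to 5.24). Nr2f2, at 118 to 173 CPM, and Rab34, at 83.6 to 102 CPM, were not called. Of 7 tested target genes, Ccnd1 alone was called in PKO-NF1 vs PKO and in PKO vs WT, and Foxl1 alone in PKO-NF1 vs NF1. Of all tested genes 5.2% were higher and 9.7% lower in the first, 10% and 5.22% in the second, and 7.9% and 13.8% in the third. The list medians were -0.09, -0.39 and -0.32 in these 3 comparisons.

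**Figure D3:**
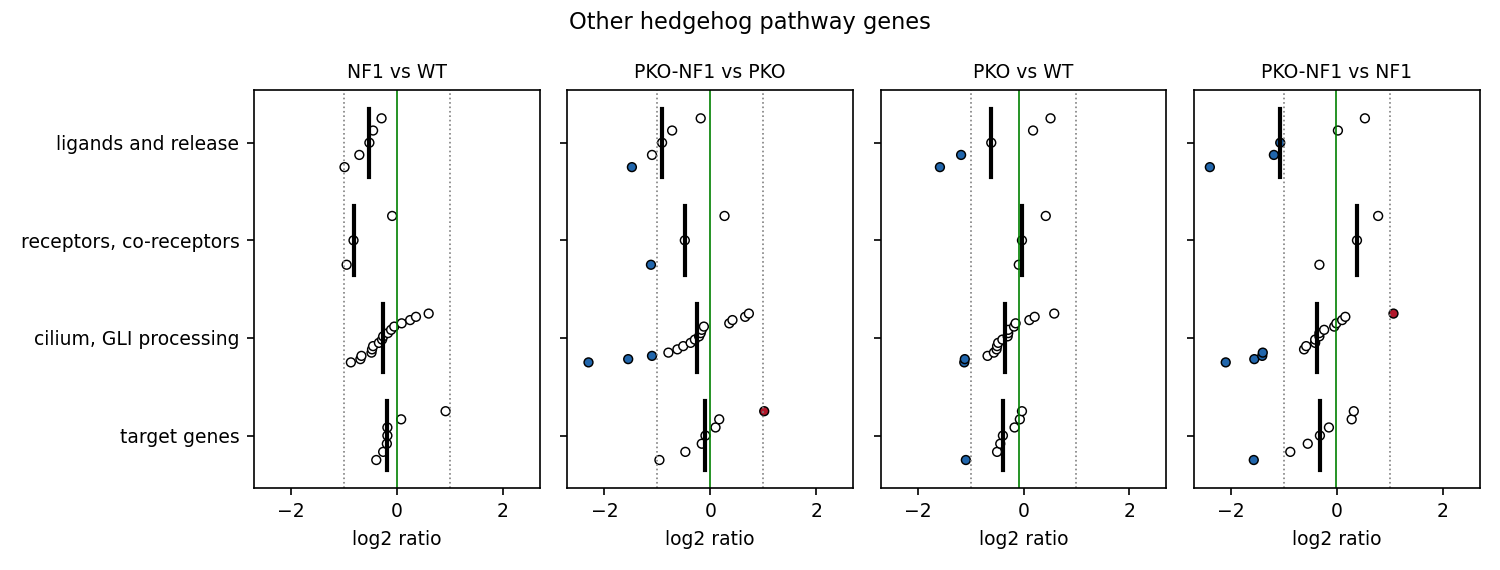
Log2 ratio between libraries (horizontal axes) of each tested gene in 4 lists of other hedgehog pathway genes (vertical axis); blue points are at least 2-fold lower and red points at least 2-fold higher with an interval that excludes 1, black bars are list medians and the green line is the median of all tested genes. No point is coloured in NF1 vs WT, and Gpr161, at -2.30 and -2.10, lies far to the left in PKO-NF1 vs PKO and PKO-NF1 vs NF1.

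The cells that receive the ligand were followed through their markers. The 7 perineurial genes summed to 1030 CPM in WT, 687 in NF1, 1060 in PKO and 702 in PKO-NF1, with 2 of 7 lower in NF1 vs WT and 1 of 7 lower in PKO-NF1 vs PKO, where 6.31% and 9.7% of all genes were lower. Removing the trends left 0 of 7 lower in either comparison. Cldn1, the main claudin of the perineurium, was at 196, 216, 176 and 219 CPM in the same order, and Itgb4, its laminin-binding integrin, at 464, 223, 420 and 135 CPM. The 5 endoneurial fibroblast genes summed to 302 to 346 CPM, and the 6 epineurial ones to 487 CPM in NF1, 682 in WT, 765 in PKO-NF1 and 1240 in PKO. None of these sums had its lowest value in PKO-NF1, the library in which Ptch1 and Gli1 were lowest. The perineurial sums of NF1 and PKO-NF1 were close, however, and the perineurial gene Lypd2 was at 34.3 CPM in NF1 and 91.3 in PKO-NF1. Itgb4, Ntn4 (35.6 CPM) and Efnb3 (26.6 CPM) were each lowest in PKO-NF1, while Cldn1, Slc2a1, Lypd2 and Msln were not. The part of these cells in the low Ptch1 and Gli1 was not tested.

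Relative to the perineurial sum, Ptch1 was 19.5% in WT, 23% in NF1, 11.3% in PKO and 6.33% in PKO-NF1, and Gli1 was 14.4%, 18.9%, 8.4% and 6.14%. Relative to the 11 fibroblast genes Ptch1 was 20.3%, 20%, 7.62% and 4%, and Gli1 15%, 16.4%, 5.66% and 3.88%. On both bases NF1 lay near or above WT, PKO below both, and PKO-NF1 lowest. These shares were computed without removing the length and GC trends, and the part of those trends in this order was not tested. The fibroblast base was mostly epineurial, at 682 of 985 CPM in WT and 487 of 789 in NF1. The endoneurial sum was 303 CPM in WT and 302 in NF1, where Ptch1 was at 200 and 158 CPM and Gli1 at 147 and 130. The 5 skin markers summed to 4.66 to 10.3 CPM, and Krt5 and Krt14 had no counts in any library. The 10 endothelial genes summed to 761 CPM in WT, 320 in NF1, 920 in PKO and 565 in PKO-NF1, with 6 of 10 lower in NF1 vs WT and 4 of 10 in PKO-NF1 vs PKO, beside the same 6.31% and 9.7% of all genes. After trend removal 6 and 2 of 10 were lower, beside 4.66% and 4.97% of all genes. The part of the endothelial genes in the lower Smo, Boc and Sufu of the Nf1-mutant libraries was not tested.

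**Figure D4:**
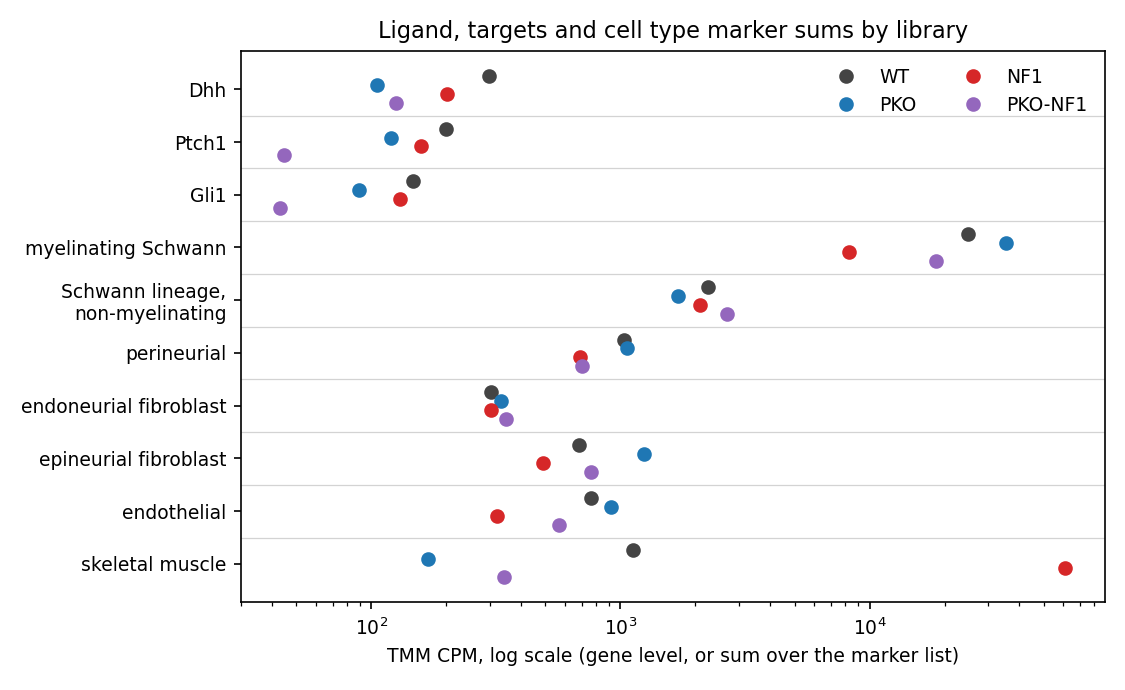
Level of Dhh, Ptch1 and Gli1 and summed level of 7 cell type marker lists (vertical axis) on a logarithmic scale of TMM-scaled CPM (horizontal axis), with 1 point per library. Ptch1 and Gli1 are lowest in PKO-NF1 (44.4 and 43.1 CPM), where the perineurial sum, at 702 CPM, is close to that of NF1 at 687 CPM, and the muscle sum stands out in NF1.

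The genes whose pattern over the 4 libraries was nearest to 3 members were found by the distance between centred log2 levels, among 11312 genes at 5 CPM or more on average. For Dhh these were Armc2 (distance 0.09), the integrin gene Itgb8 (0.13) and Arhgef16 (0.22). For Ptch1 they were Rai1 (0.08), Zfp369 (0.11) and Fam160b2 (0.11), and for Gli1 they were Sugp2 (0.05), Mier2 (0.07) and Nf1 itself (0.08). The nearest genes were closer to Ptch1 and Gli1 than these 2 members were to each other (0.32). Likeness over 4 libraries rests on 4 values per gene, was computed without removing the length and GC trends, and is a description only.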

How the data were processed

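Sciatic nerve RNA of 4 genotypes was sequenced, 1 library each, with a TruSeq kit and 1 ug of input RNA, per the labels' protocols. The authors deposited whole-number counts per gene symbol; per the submitters' processing notes, build mm10, HISAT2 2.0.5, featureCounts 1.5.2 and FastQC 0.11.7 were used. The sources used here give neither annotation, strandedness nor the handling of multiply mapped or overlapping reads, so counts of overlapping genes are uncertain. No column was left out.

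Counts were scaled with edgeR 4.0.16 TMM factors (1.2 in WT, 1.03 in NF1, 0.873 in PKO and 0.922 in PKO-NF1). Ratios carry exact conditional 95% intervals and levels exact Poisson intervals; differences between Nf1 ratios carry normal intervals from the 4 counts. Intervals cover counting error only, with 1 library per genotype. The reads carry no molecular identifiers, so copies made by PCR cannot be told apart and the intervals may be too narrow. The additive model used glmQLFTest with 1 residual degree of freedom on genes at 1 CPM in at least 2 libraries, with Benjamini-Hochberg adjustment, and DESeq2 1.42.0 as an alternative. Trends were natural splines (4 degrees of freedom each) over GC content and log10 length of the longest transcript, fitted without muscle and sex-linked genes and centred. Annotation was GENCODE M21 on GRCm38, to which 98.4% of symbols matched. The code was tested on simulated data.

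Named were the 9 members, the called genes of each other pathway list and the 2 most abundant uncalled ones that were tested, the 3 genes most like Dhh, Ptch1 and Gli1, the targeted genes and abundant markers. One gene was left out of the pathway lists and is not reported here. Rhebl1, Arhgap9, Ihh, Krt5, Krt14, Lypd2, Ntn4, Efnb3 and Msln were chosen after their values were seen. Members and lists were chosen with earlier results of these data known. Alternatives were other size factors, total counts, other filters, a 1.5-fold threshold, removal of muscle and sex-linked genes, and the trend removal.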

Additional observations from a re-analysis of the deposited data

Results flagged for a closer look

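Under the main scaling Dhh was the member whose 2 Nf1 ratios pointed in opposite directions beyond counting error; with the length and GC trends removed Gli1 (0.42 and -0.42) and Gli2 (-0.45 and 0.97) did so as well. Its level was 202 CPM in NF1 against 297 in WT, a log2 ratio of -0.55, and 125 CPM in PKO-NF1 against 105 in PKO, a log2 ratio of 0.25. The ratio in the P2ry14-null pair minus that in the P2ry14-intact pair was 0.81 (counting interval 0.70 to 0.91), and 0.77 (0.66 to 0.88) with length and GC trends removed. With 1 library per genotype the difference was not tested against a spread between animals.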

How the results depend on the processing

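No paired analysis was possible because each genotype has 1 library. Of the 9 calls among the 36 member ratios, 9 remained with DESeq2 size factors and with muscle and sex-linked genes removed, 7 with total counts alone (4 added) and 4 with length and GC trends removed, and none reversed. The sign was kept in 34, 36, 34 and 29 of the 36 ratios. Members called numbered 2 for NF1 vs WT, then 3 for PKO-NF1 vs PKO, and 2 each for PKO vs WT and PKO-NF1 vs NF1, the order used below. With total counts alone they numbered 4, 1 and 4 in the first 3 comparisons, and with the trends removed 1, 0 and 1. At 1.5-fold they numbered 5, 6, 4 and 4, and with a 5 CPM filter, which leaves out Hhip, 1 in NF1 vs WT. Over all genes, 1.5-fold gave 5266, 5250, 4630 and 6475 called genes in place of 2458, 2190, 2242 and 3193; trend removal gave 1152 in PKO-NF1 vs PKO and total counts 3477 in PKO vs WT. Total counts moved the median log2 ratio of all genes to -0.22 for NF1 vs WT and -0.18 for PKO-NF1 vs NF1, and the share of called genes that were higher from 36.4% to 22.5% in the latter. For the Nf1 term the DESeq2 Wald test called 284 genes and edgeR with no filter 46, in place of 0. For the P2ry14 term these were 720 and 108, in place of 7, and a model with 1 genotype term called 0. Leaving out each library in that 1-term model gave 0 to 86 genes for Nf1, the highest without PKO-NF1, and 0 to 396 for P2ry14 (396 without WT, 57 without NF1, 0 without either other library); the lone library of an arm is then assumed to vary like the others. No member was called in any of these edgeR fits. The cause of these differences was not tested. Depth limits Hhip most, at 23 to 82 counts.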
